A study of Mus musculus with 4 samples.

Results

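The untreated IFNaR-/- glioma was compared with the untreated WT glioma, each as 1 single-cell RNA sequencing library. Both libraries came from brains of mice that had received GL261, a mouse glioma cell line, by intracranial injection, and live CD45.2+ 7-AAD- cells were sorted on day 20 with no treatment given. The hosts were labelled WT or IFNaR-/- (KO below), the latter lacking the receptor for type I interferons; which of its subunits was removed is not said in the labels, and the tumour cells themselves came from GL261. Cell suspensions were pooled before the sort, with no count of animals stated, and 1 line of the sorting protocol calls the cells lung immune cells although every other label says brain. Barcodes were kept if they had 200 or more genes and if mitochondrial genes made up 10% or less of their UMIs (unique molecular identifiers, 1 per captured transcript). This left 5264 of 6662 barcodes in WT and 2810 of 3705 in KO, so 8074 cells of the 28661 barcodes in the 4 libraries of the series. The anti-PD1 libraries were not used here.

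Type I interferons, the interferon alphas and interferon beta, bind a receptor made of IFNAR1 and IFNAR2, which acts through the kinases JAK1 and TYK2 to activate STAT proteins. STAT2 and IRF9 are part of a complex that binds a promoter sequence called the interferon-stimulated response element (ISRE) and switches on antiviral genes such as Isg15, Ifit3 and Irf7. Interferon gamma uses another receptor and mainly STAT dimers that bind a GAS element, so many genes respond to both. In brain tumours, interferon acts on resident microglia, on monocytes and macrophages that enter from the blood, and on lymphocytes.

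The kept cells held 45788989 UMIs in WT and 30190236 in KO, and the median cell had 7306 and 9534. Kept KO cells had a higher median share of mitochondrial UMIs, 4.26% against 3.0%. The libraries had 3 barcodes in common. Ptprc, the gene of the sorted CD45 antigen, had UMIs in 94.0% of WT and 92.2% of KO cells, and 5 erythroid markers together stood at 0.175 and 0.331 CPM over all cells. CPM is a gene's UMI count scaled to a common total over the group of cells. With 1 library a side there was no spread between replicates, so no test was made. Every interval is 95%, exact, and covers counting error only, and each fold describes these 2 libraries rather than the genotypes. A gene was compared where the pair held at least 50 UMIs of it, and was counted as lower or higher where it differed by at least 2-fold. Where KO had 0 UMIs, the fold is a lower bound against a floor of 3 UMIs summed over the cells.

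Cells were assigned to lineages from raw UMIs of a few marker genes, and 4936 cells passed exactly 1 gate. Monocytes and macrophages took 21.6% (20.5 to 22.8%) of kept WT cells and 21.3% (19.8 to 22.8%) of KO cells. CD8 T cells, which kill target cells, took 12.96% and 13.6%. Helper CD4 T cells took 6.23% (5.59 to 6.92%) in WT and 3.92% (3.23 to 4.70%) in KO. Natural killer cells took 3.74% (3.25 to 4.29%) and 1.64% (1.20 to 2.18%), a 2.29-fold smaller share in KO. B cells took 1.25% and 0.605%. Other kinds of cell held larger shares in KO. Type 1 conventional dendritic cells, which present antigen to CD8 T cells, went from 25 cells, 0.475% (0.308 to 0.70%), to 61 cells, 2.17% (1.66 to 2.78%), a 4.57-fold larger share. Neutrophils took 1.16% in WT and 2.17% in KO. Plasmacytoid dendritic cells, the classical producers of interferon alpha, took 0.969% (0.722 to 1.27%) and 2.21% (1.70 to 2.82%). That last share depends on the mitochondrial limit: gated KO cells of this kind had a median of 6.27% mitochondrial UMIs against 3.94% in WT, and with a limit of 5% only 6 of them were left against 39 in WT, a smaller share in KO. Microglia, 7.41% and 10.1%, also changed order under that limit, with log2 KO/WT of -0.12 in place of 0.45. No gate was passed by 38.6% of WT and 36.4% of KO cells. The 6 lineages with at least 50 cells in both libraries are described below. Marker genes outside the gates were high where the lineage names place them in these examples: Trac, Trbc2 and Thy1 together reached 2555 CPM in gated WT CD8 T cells and 2501 in KO, and S100a8, S100a9 and G0s2 reached 151270 and 139165 CPM in gated neutrophils. RNA of other cells was present too. Igha, Igkc and Jchain of plasma cells together stood at 6966 CPM in WT and 0.806 in KO in the CD4 T cell gate, and at 2644 and 3.54 in the CD8 T cell gate. Mast cell genes stood at 1960 and 7.47 CPM in gated microglia, with UMIs in 6.41% of WT and 8.10% of KO cells. Most WT microglial UMIs of the mast cell protease Mcpt1 lay in 1 barcode. The part of this RNA in the differences described for these gates was not tested.

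Over all cells, 12944 genes were compared. Of these, 354 (2.73%) were at least 2-fold lower in KO and 363 (2.80%) at least 2-fold higher. Interferon-stimulated genes, a list of 81 antiviral effectors and sensors, stood apart on the lower side: all 79 compared were below 0 on the log2 scale, 68 were at least 2-fold lower and 0 higher, with a median log2 KO/WT of -2.16 where all genes had 0.03. Ifi27l2a, a small interferon-induced mitochondrial protein, had 101488 UMIs in WT and 671 in KO, 2216 and 22.2 CPM, which was 99.7-fold lower. Oas1g, of the 2'-5' oligoadenylate synthetases that sense double-stranded RNA, had 695 UMIs in WT and 2 in KO. The mixture of lineages differed between the libraries, so the results below are given within lineages.

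The promoters of several of these genes carry the ISRE letters, and 4 of them are shown because their genes are described in several lineages or show how the number of matches varies. Each line gives 60 bases of the RefSeq promoter (GRCm38.p6), read in the direction of the gene, with matches to the ISRE core in capitals. Ifit3 lies at chr19:34583365-34583424 (plus strand), Isg15 at chr4:156200856-156200915 (minus strand), Rsad2 at chr12:26456538-26456597 (minus strand) and Cxcl10 at chr5:92349068-92349127 (minus strand).
Ifit3: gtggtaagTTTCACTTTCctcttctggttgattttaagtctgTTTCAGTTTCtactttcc
Isg15: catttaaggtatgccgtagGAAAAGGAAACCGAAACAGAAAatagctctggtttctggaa
Rsad2: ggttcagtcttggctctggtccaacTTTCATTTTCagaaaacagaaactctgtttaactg
Cxcl10: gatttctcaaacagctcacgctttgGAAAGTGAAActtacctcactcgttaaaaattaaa
In Isg15 there were 3 overlapping matches, which began 78 bases before the start of the gene. Ifit3 had 2 matches, the first of them 156 bases before the start, and Rsad2 and Cxcl10 had 1 match each.

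Monocytes and macrophages, 1138 WT and 598 KO cells, held the largest number of cells of any gate. Of 9920 genes compared, 420 (4.23%) were at least 2-fold lower in KO and 381 (3.84%) at least 2-fold higher. All 79 interferon-stimulated genes compared were lower, 72 of them by at least 2-fold, with a median of -2.66. Ifi27l2a had 30838 UMIs in 1097 of the WT cells and 81 UMIs in 38 of the KO cells, 2987 and 10.9 CPM. The Ifit3 level, of a protein family that blocks translation of foreign RNA, was 247 CPM in WT and 1.61 in KO, 153-fold lower (87.7 to 297-fold). Ifi44 had 427 UMIs in WT and 0 in KO, at least 103-fold lower. Mx1, a GTPase that blocks influenza viruses and is not in the list, had 2051 UMIs in WT and 42 in KO, 35.2-fold lower (26.0 to 49.0-fold). Isg15, a ubiquitin-like protein, kept a measurable level in KO: 1960 CPM in WT and 128 in KO, 15.3-fold lower.

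The pathway's own parts split. Of 29 receptor and signalling genes, 5 were at least 2-fold lower and 0 higher, and the median was -0.21. The lower ones included Irf7, the transcription factor that amplifies interferon alpha production, with 7332 UMIs in WT and 162 in KO, 32.6-fold lower (27.9 to 38.4-fold). Usp18, an inhibitor that strips ISG15 from proteins and blunts the receptor, was 34.3-fold lower (23.6 to 51.8-fold). Stat2, part of the ISRE-binding complex, was 4.59-fold lower (4.14 to 5.10-fold). Ifnar1, one receptor subunit, stood at 124 CPM in WT and 130 in KO, within counting error of each other, and Ifnar2, the other, at 130 and 93.2 CPM, 1.39-fold lower (1.27 to 1.53-fold). Ifngr1, the ligand-binding receptor of interferon gamma, was measured over all cells at 249 and 268 CPM.

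**Figure D1:**
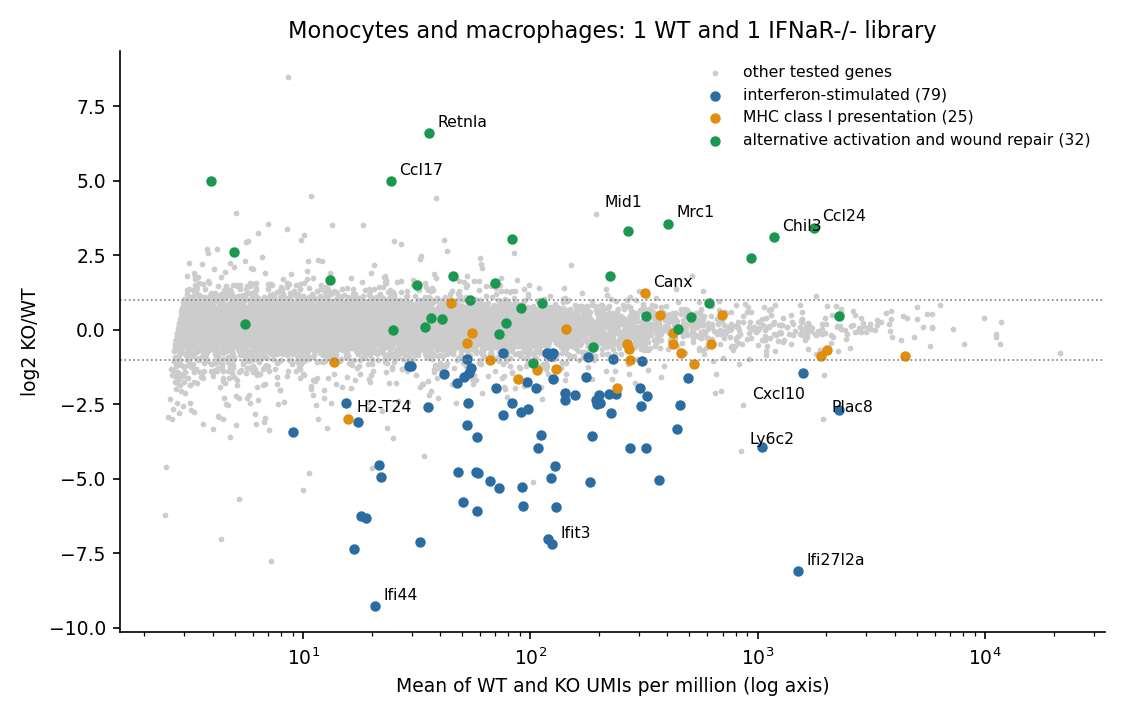
Log2 KO/WT against the mean level (CPM, log axis) of the 9920 genes compared in monocytes and macrophages; 1 WT and 1 KO library, dotted lines at 2-fold. Interferon-stimulated genes (79) all lie below 0, 20 of the 25 MHC class I genes lie below 0, and 29 of the 32 alternative activation genes above 0.

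Genes linked to interferon gamma were lower to a smaller extent, with 14 of 34 at least 2-fold lower and a median of -0.80. Cxcl10, a chemokine that draws CXCR3+ T cells, had 15195 UMIs in WT and 1905 in KO, 5.75-fold lower (5.48 to 6.04-fold). Cxcl9, its close relative and induced mainly by interferon gamma, differed far less, 1453 against 1147 CPM, 1.27-fold lower (1.23 to 1.30-fold); it was chosen after its values were seen, as were Isg15, Chil3 and Arg1 in these cells. Pml, a nuclear body protein, was 4.90-fold lower and Tgtp2, an interferon-inducible GTPase, 4.13-fold lower. Ifng itself, interferon gamma, had 89 UMIs in gated WT and 32 in gated KO monocytes and macrophages, and over all cells it stood at 203 and 205 CPM.

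Antigen presentation genes went different ways. Of 25 MHC class I presentation genes, 9 were at least 2-fold lower and 1 higher, with a median of -0.67. H2-T24 was 8.02-fold lower (5.36 to 12.5-fold) and H2-Q7 3.90-fold lower (3.60 to 4.23-fold), from 384 to 98.3 CPM; both are non-classical class I genes, whose near-identical neighbours can share reads. Canx, the chaperone calnexin, was the member higher in KO, 190 against 445 CPM. MHC class II genes, which present antigen to CD4 T cells, had a median of 0.31, with 0 of 12 at least 2-fold lower and 1 higher, H2-DMb2 at 21.1 and 53.2 CPM.

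Cytokines made by these cells included Il15, which supports natural killer and memory CD8 T cells, with 437 UMIs in WT and 32 in KO, 9.85-fold lower (6.87 to 14.6-fold). Il18, an interferon gamma inducer, was 4.53-fold lower (3.65 to 5.68-fold), and Cd40, a costimulatory receptor, 2.31-fold lower. Of 22 genes in the list of inflammatory cytokines and enzymes, 5 were at least 2-fold lower and 1 higher, with a median of -0.32. The higher one was Lcn2, with a log2 KO/WT of 4.505 (3.99 to 5.57 over 13 alternatives). Among 20 chemokines, 5 were at least 2-fold lower and 5 higher. Ccl5 was 4.15-fold lower and Ccl12, a monocyte chemokine, 3.80-fold lower. On the higher side, Ccl24, an eotaxin, had 3089 UMIs in 156 WT cells and 24002 in 370 KO cells, 299 and 3224 CPM, 10.8-fold higher (10.4 to 11.2-fold). The log2 KO/WT of Ccl24 was 3.43, and 2.49 to 3.49 over 13 alternatives. Ccl17, which draws CCR4+ T cells, had 15 UMIs in 6 WT cells and 352 in 32 KO cells. Ccl6 was 2.58-fold higher.

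Alternative activation and wound repair genes were higher in KO, with a median of 0.95 against 0.08 for all genes. Of 32 compared, 15 were at least 2-fold higher and 1 at least 2-fold lower. The list mixes genes that interleukin-4 and interleukin-13 induce in macrophages with genes of wound repair. This list shares Ccl17 and Ccl24 with the chemokine list. Mrc1, the mannose receptor CD206, had 650 UMIs in 191 WT cells and 5542 in 372 KO cells, 63.0 and 744.5 CPM, 11.8-fold higher (10.9 to 12.8-fold). The log2 KO/WT of Mrc1 was 3.56, and 2.25 to 3.89 over 13 alternatives. Chil3, a chitinase-like secreted protein, stood at 244 and 2118 CPM. Arg1, arginase 1, stood at 426 and 794 CPM, 1.86-fold higher. Retnla, a secreted resistin-like protein, had 7 UMIs in 2 WT cells and 526 UMIs in 14 KO cells, of which 149 lay in 1 cell. So Mrc1, Chil3 and Ccl24 were read in 372, 352 and 370 KO cells, and Retnla in 14. Gpnmb, a glycoprotein of lipid-laden macrophages, went the other way, 141 and 64.6 CPM, but at equal depth, with every cell thinned to 2000 UMIs before gating, its log2 KO/WT was -0.26 and no longer 2-fold, and Vegfa, a vascular growth factor, was 1.48-fold lower.

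The Retnla promoter at chr16:48842439-48842498 (RefSeq, GRCm38.p6, plus strand) is shown because it holds the letters that STAT6, the factor downstream of interleukin-4, is known to bind; the match begins 145 bases before the start and is in capitals.
Retnla: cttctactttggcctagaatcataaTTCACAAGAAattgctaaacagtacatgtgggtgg

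Genes of the myeloid surface and of Ly6C-high monocytes also differed. Ly6c2, the Ly6C antigen of inflammatory monocytes, had 16509 UMIs in 963 of 1138 WT cells and 715 UMIs in 176 of 598 KO cells, 16.7-fold lower (15.5 to 18.0-fold). Plac8, another gene of these monocytes, was 7.88-fold lower (7.60 to 8.17-fold) and Siglec1, the sialic acid receptor CD169, 10.7-fold lower (5.49 to 23.99-fold). Fcgr1, the high-affinity IgG receptor, was 2.77-fold lower (2.59 to 2.97-fold), Fcgr2b, the inhibitory one, 1.76-fold higher (1.71 to 1.83-fold) and Fcgrt, the neonatal Fc receptor, 3.13-fold higher. Spp1, osteopontin, stood at 100.1 and 348 CPM, and Mgl2, a lectin of alternatively activated macrophages, at 35.1 and 104 CPM. A sum over cells does not separate fewer Ly6C-high cells from less Ly6c2 per cell.

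RNA of lymphocytes was present at low levels in these gated cells and was lower in KO. Trac, Trbc2 and Thy1 together stood at 29.35 CPM in WT and 9.0 in KO. Gzma, Gzmb and Nkg7 stood at 95.9 and 26.7 CPM, and 8 of 18 cytotoxic effector genes were at least 2-fold lower in gated monocytes and macrophages, among them Nkg7, 212 UMIs in WT and 31 in KO (log2 -2.28, and -0.998 at equal depth). Igha, Igkc and Jchain of plasma cells stood at 80.2 and 3.36 CPM. Their part in the chemokine Ccl5, which is also a cytotoxic list member, was not tested.

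**Figure D2:**
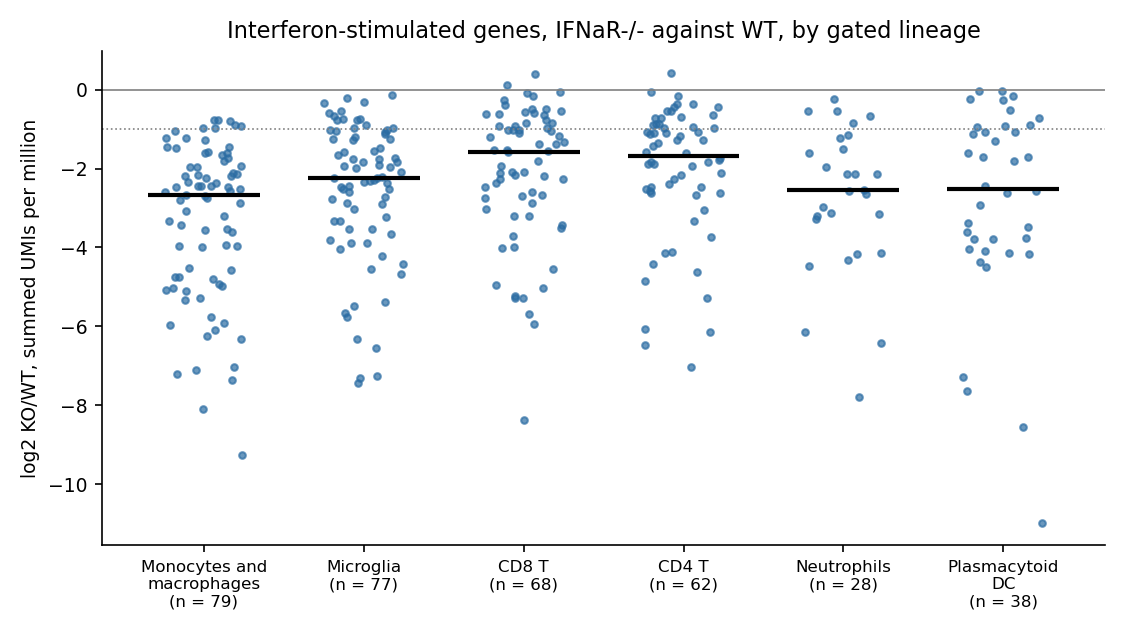
Log2 KO/WT of each compared interferon-stimulated gene (points) in the 6 lineages, with the median as a bar (-2.66, -2.24, -1.57, -1.67, -2.55 and -2.51 from left to right) and a dotted line at 2-fold lower. Points at 0 UMIs in KO are placed by the pseudocount of 0.5, and n is the number of genes compared.

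Microglia, 390 WT and 284 KO cells, had 234 of 9064 genes (2.58%) at least 2-fold lower and 153 (1.69%) at least 2-fold higher. All 77 interferon-stimulated genes compared were lower and 63 by at least 2-fold. Ifi27l2a had 5306 UMIs in 332 WT cells and 47 in 10 KO cells, with 36 of those 47 in 1 barcode. Oas2, an RNA sensor, had 282 UMIs in WT and 1 in KO, and Oas1a 239 and 2. Usp18 had 224 and 3, 62.7-fold lower (21.2 to 306-fold), and Irf7 852 and 33, 21.7-fold lower. Isg15 was 3.84-fold lower (3.46 to 4.27-fold), beside 15.3-fold in monocytes and macrophages. Its WT level was 498 CPM here and 1960 there, and the KO levels were 129 and 128. Isg15 was chosen after its values were seen in microglia and in CD8 T cells too. Cxcl10 was 1.82-fold lower in microglia (1.70 to 1.95-fold), 636 and 349.8 CPM; when cells were first thinned to equal depth, its log2 KO/WT was -0.05 in place of -0.86.

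Complement genes of the early cascade were among the lower genes in microglia. C2 had 130 UMIs in WT and 8 in KO, 13.6-fold lower (6.72 to 32.3-fold). Cfb, the matching enzyme of the alternative pathway, was 5.96-fold lower (4.03 to 9.13-fold), and Serping1, the C1 inhibitor, 5.0-fold lower (3.17 to 8.25-fold). In monocytes and macrophages Cfb was 2.88-fold lower. Cxcl13, a chemokine for B cells, had 259 UMIs in 27 WT microglia, 100 of them in 1 cell, and 3 UMIs in KO. Il6 had 187 UMIs in 24 WT cells, 65 of them in 1 cell, and 32 UMIs in KO.

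MHC class I genes in microglia had a median of -0.63, with 7 of 25 at least 2-fold lower. H2-Q7 stood at 670 and 189.5 CPM and H2-T23, which encodes the ligand Qa-1 of NKG2A, at 767 and 346 CPM, 2.22-fold lower. MHC class II genes had a median of 0.24, with 0 of 12 past 2-fold in either direction. Homeostatic microglial genes were level between the libraries, with a median of 0.04 and 0 of 16 past 2-fold, although genes of the gate are not among those 16.

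The alternative activation list was higher in KO microglia too, 13 of 26 by at least 2-fold and 1 lower, with a median of 1.03 (0.54 to 1.47 over 12 alternatives). Ccl24 had 88 UMIs in 29 WT cells and 3785 in 112 KO cells, 51.2-fold higher (41.5 to 64.0-fold). Mrc1 had 80 UMIs in 31 WT cells and 1012 in 92 KO cells; it was chosen after its values were seen. Ear2, an eosinophil-type ribonuclease, had 0 and 69 UMIs, in 16 KO cells, at least 27.4-fold higher. Ccl17 had 136 KO UMIs in 3 cells only. Lipid handling genes included Fabp5, a fatty acid carrier, 2.07-fold higher (log2 0.73 without the top 5% of barcodes), and Apoe, 8549 and 13432 CPM, 1.57-fold higher, while Cst7, an inhibitor of cathepsins, was 1.98-fold lower. Vegfa was 2.45-fold lower, log2 -1.29, but -0.51 with stricter gates and -0.03 at equal depth. Plet1 and Adamdec1, macrophage and dendritic cell genes, had 1 UMI each in WT and 122 and 105 in KO, in 15 and 12 cells. The macrophage genes Ms4a7, F13a1 and Apoe, not used in the gate, together stood at 8701 CPM in WT and 13564 in KO microglia, and their part in these differences was not tested.

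At equal depth the interferon difference was visible in the counts per cell, with overlap between the libraries. Each cell was thinned to 2000 UMIs, and the UMIs of the interferon-stimulated list were counted in it. Cells with fewer UMIs were left out: 6 of 61 WT and 23 of 61 KO neutrophils, 9 and 21 microglia, 23 and 0 CD4 T cells, and at most 11 in any other group. Monocytes and macrophages went from a median of 54 UMIs in WT to 8 in KO, and 0 of 595 KO cells reached the WT median. Microglia went from 22 to 7, and 1 of 263 KO cells reached the WT median. CD8 T cells went from 13 to 6 and CD4 T cells from 18 to 6, with 11 of 373 and 2 of 110 KO cells at or above the WT median. Plasmacytoid dendritic cells went from 26 to 11, and 0 of 56 KO cells reached the WT median. In the 55 WT neutrophils left the median was 16, the upper quartile 60.5 and the 95th percentile 166, and in the 38 KO neutrophils the median was 6. Of those 38 KO cells, 5 (13.2%) were at or above the WT median. WT cells at or below the KO 95th percentile made up 12.2% of monocytes and macrophages, 25.2% of microglia and 41.9% of CD8 T cells. They made up 29.2% of CD4 T cells, 61.8% of neutrophils and 14.3% of plasmacytoid dendritic cells.

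**Figure D3:**
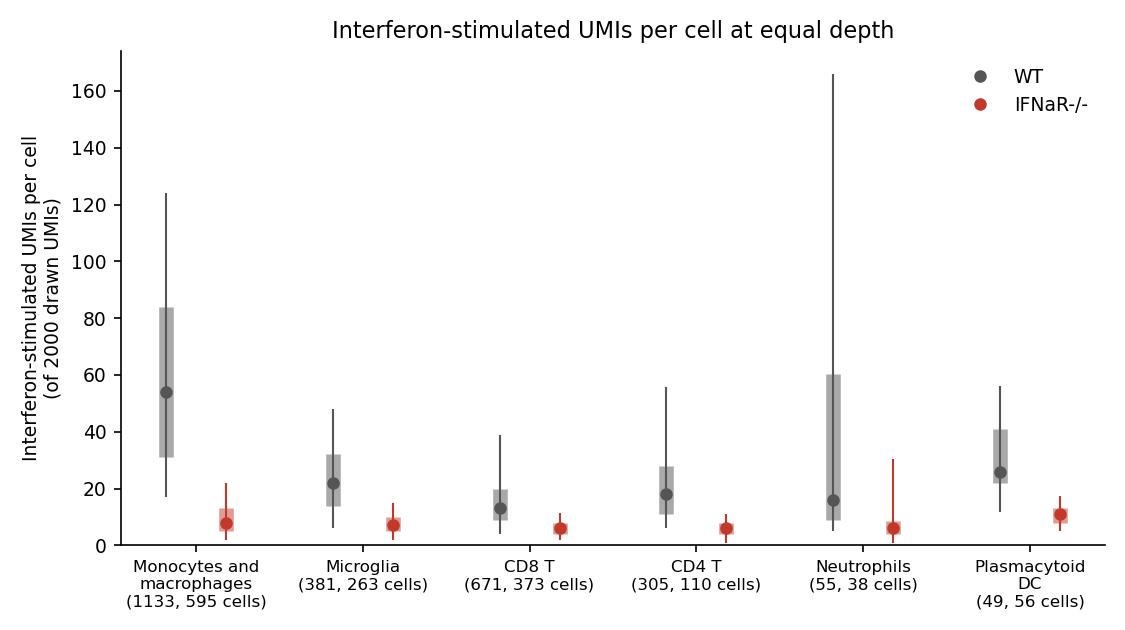
Interferon-stimulated UMIs per cell after thinning every cell to 2000 UMIs, WT grey and KO red: dot, median; thick bar, quartiles; thin line, 5th to 95th percentile, which measure spread between cells and not between animals. The KO medians lie between 6 and 11 in all 6 lineages, while the WT medians range from 13 in CD8 T cells to 54 in monocytes and macrophages.

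CD8 T cells, 682 WT and 382 KO cells, had fewer genes past 2-fold, 117 of 9314 (1.26%) lower and 149 (1.60%) higher. Of 68 interferon-stimulated genes, 47 were at least 2-fold lower and 0 higher, with a median of -1.57. Ifi27l2a had 10496 UMIs in 525 WT cells and 17 in 10 KO cells, 344-fold lower (215 to 591-fold). Rsad2, viperin, had 230 and 2 UMIs, Rtp4 312 and 4, and Usp18 304 and 5. Lyz2, Apoe and Cst3 in this gate were measured as a share of their monocyte and macrophage level. The share was 0.308% in WT and 0.259% in KO for Lyz2, 0.683% and 0.574% for Apoe, and 21.3% and 16.8% for Cst3. For Isg15 it was 7.65% and 21.2%. Cst3 was not particular to monocytes and macrophages: gated WT plasmacytoid dendritic cells had 148% of that level, and 0.400% for Lyz2. The part of myeloid RNA in the Isg15 difference was not tested.

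Ly6c2, which marks memory CD8 T cells and is interferon-inducible, had 11896 UMIs in 560 WT cells and 420 in 92 KO cells, 15.8-fold lower (14.3 to 17.4-fold). At 2000 UMIs a cell it was found in 67.1% (63.4 to 70.6%) of WT and 11.8% (8.70 to 15.5%) of KO CD8 T cells, and without thinning in 82.1% and 24.1%. In CD4 T cells it had 231 UMIs in 42 WT cells and 0 in KO, at least 33.9-fold lower; at 2000 UMIs a cell it was found in 6.56% of WT and 0 of 110 KO CD4 T cells. The upper limit for KO is 3.30% of cells with a captured UMI at that depth, which does not limit the share of cells that express the gene. Plac8 was 6.32-fold lower. The 13 natural killer receptor genes compared had a median of -0.05, with 4 at least 2-fold lower and 1 higher. The Ly49 receptors Klra7 and Klra6, inhibitory receptors for MHC class I, had 273 and 63 UMIs in 25 and 18 WT cells, and 16 and 4 UMIs in KO. They are paralogues that can share reads. Klrb1c was the higher one, with a log2 KO/WT of 1.14 (1.05 to 1.94 over 12 alternatives). MHC class I genes had a median of -0.40, with 0 of 24 past 2-fold.

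Effector genes went both ways. The 29 cytotoxic effector genes had a median of -0.04, 15 below and 14 above 0, with 1 at least 2-fold lower and 4 higher, and Ifng stood at 438 and 587 CPM, 1.34-fold higher (1.28 to 1.41-fold). The higher ones included Serpinb6b, a granzyme inhibitor, 3.37-fold higher (3.03 to 3.77-fold), and Gzme, granzyme E, 2.76-fold higher but with 212 of 579 KO UMIs in 1 cell and a log2 of 0.92 without the top 5% of barcodes. A pair of serine protease inhibitors was also higher, Serpina3g 2.71-fold and Serpina3f 8.60-fold (5.88 to 12.9-fold). Naive and memory genes had a median of 0.52, with 4 of 18 at least 2-fold higher and 1, Ly6c2, lower. Ccr7, the lymph node homing receptor, had 128 UMIs in 42 WT cells and 258 in 51 KO cells, 3.62-fold higher (2.92 to 4.51-fold), and Slamf6, of progenitor cells, was 3.04-fold higher. Tnfrsf4, the costimulatory receptor OX40, was 3.28-fold higher (2.79 to 3.87-fold). Exhaustion and checkpoint genes had a median of 0.18 with 1 of 20 lower and 0 higher by 2-fold, and Ctla4 was 1.69-fold higher. Cell cycle genes had a median of 0.01.

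CD4 T cells, 328 WT and 110 KO cells outside the regulatory gate, had 160 of 7247 genes (2.21%) at least 2-fold lower and 146 (2.01%) higher. Of 62 interferon-stimulated genes, 43 were at least 2-fold lower and 0 higher, with a median of -1.67. Ifit1 had 148 UMIs in WT and 0 in KO, at least 21.7-fold lower, and Oas3 100 and 0. Irf7 was 5.69-fold lower, log2 -2.47, and -0.94 at equal depth. Ifi27l2a differed less than in the other 5 lineages compared: 3903 CPM in WT and 226 in KO, 17.3-fold lower (15.4 to 19.6-fold), with KO UMIs in 37 of 110 cells, while gated CD8 T cells of KO had UMIs in 10 of 382 cells.

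Cell cycle genes were higher in KO CD4 T cells. All 42 compared were above 0 and 27 were at least 2-fold higher, with a median of 1.12. Nusap1, a spindle protein, was 4.04-fold higher (2.93 to 5.6-fold), Tpx2, a spindle assembly factor, 3.63-fold (log2 1.85, and 0.72 at equal depth), and Ccna2, cyclin A2, 3.41-fold. At 2000 UMIs a cell, 13 of 305 WT cells (4.26%, 2.29 to 7.18%) and 16 of 110 KO cells (14.5%, 8.55 to 22.5%) had at least 20 cell cycle UMIs. In CD8 T cells these shares were 13.6% (11.1 to 16.4%) and 17.7% (14.0 to 21.9%). The CD4 value rests on 16 KO cells.

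The 24 cytotoxic effector genes compared in the CD4 gate went both ways, with a median of -0.02, 6 at least 2-fold lower and 3 higher. The lower ones included Ccl5 by 4.95-fold (3.88 to 6.40-fold), Gzmb by 4.72-fold and Klrd1 by 2.30-fold, the last with a log2 of -0.97 at the stricter cell filter. Gzme and Gzmd, other granzymes, were higher, 5.05-fold and 3.85-fold, with 71 of 122 and 64 of 115 KO UMIs in 1 barcode each; Gzme had a log2 of 0.30 at equal depth and Gzmd of 0.97 with stricter gates. The myeloid and natural killer adaptors Fcer1g and Tyrobp were also lower in the CD4 gate, 3.93-fold and 3.99-fold (Fcer1g log2 -0.91 at equal depth), and the part of other cells in these differences was not tested. Areg, amphiregulin, had 118 UMIs in WT and 313 in KO, of which 103 lay in 1 cell.

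Neutrophils numbered 61 in each library, with a median of 2827 UMIs in WT and 2147 in KO, so only 1065 genes were compared, 83 (7.79%) at least 2-fold lower and 62 (5.82%) higher. All 28 interferon-stimulated genes compared were lower and 23 by at least 2-fold, with a median of -2.55. Ifi27l2a had 469 UMIs in 41 WT cells and 1 in KO, and Ifit3b and Ifit2 61 and 50 UMIs in WT and 0 in KO. B2m, the invariant chain of MHC class I, was 2.14-fold lower (1.80 to 2.57-fold). The inducible chaperones Hspa1a and Hspa1b were 6.51-fold (4.27 to 10.4-fold) and 5.30-fold lower. The 20 immediate early and heat shock genes compared, which include them, had a median of 0.25, with 8 below and 12 above 0. Of these 20, 4 were at least 2-fold lower and 1 higher. Wfdc17, a secreted protease inhibitor family protein, had 94 UMIs in 19 WT cells and 400 in 33 KO cells, 6.07-fold higher (4.84 to 7.68-fold). Cxcl2, a neutrophil chemokine, was 2.44-fold higher, and Il1rn, the interleukin-1 antagonist, 2.83-fold. Camp, a granule protein of young neutrophils, had UMIs in 9 WT and 7 KO cells only.

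Plasmacytoid dendritic cells, 51 WT and 62 KO cells, had 126 of 3573 genes (3.53%) at least 2-fold lower and 99 (2.77%) higher. All 38 interferon-stimulated genes compared were lower, 28 by at least 2-fold, with a median of -2.51. Ifi27l2a had 878 UMIs in 42 WT cells and 0 in KO, at least 336-fold lower, and Slfn5, a Schlafen protein, 164 and 0, at least 62.8-fold lower. Isg15 had 259 UMIs in WT and 1 in KO. Irf7, the factor on which their interferon output is known to rest, had 196 UMIs in WT and 21 in KO, 10.7-fold lower (6.82 to 17.7-fold), yet was found in 18 of 62 KO cells. MHC class I genes had a median of -1.11, or -0.44 at equal depth, with 12 of 23 at least 2-fold lower; H2-Q7 had 431 UMIs in WT and 27 in KO, 18.3-fold lower (12.4 to 28.1-fold). MHC class II genes had a median of -0.76, and H2-Ab1 and H2-Eb1 were 2.60-fold and 2.84-fold lower, with 283 of 619 and 239 of 430 WT UMIs in 1 cell; without each gene's top barcode both were just under 2-fold, and at equal depth their log2 values were -0.32 and -0.28. Ly6a, the Sca-1 antigen, was 22.6-fold lower (17.4 to 29.8-fold). Higher in KO was Irf4, a factor of dendritic cells and B cells, 4.52-fold (2.63 to 8.27-fold). So were Cd209a, a lectin of monocyte-derived dendritic cells, 12.6-fold (6.68 to 26.9-fold), and Fcgr2b, 10.3-fold (log2 3.28, but 1.39 at equal depth). Macrophage RNA differed as well: the summed CPM of Ms4a7, F13a1 and Apoe was 48.7 for WT against 127 for KO. Lyz2 went the other way, with 27.3 CPM against 20.4. How far RNA of other cells accounts for Cd209a and Fcgr2b was not tested.

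**Figure D4:**
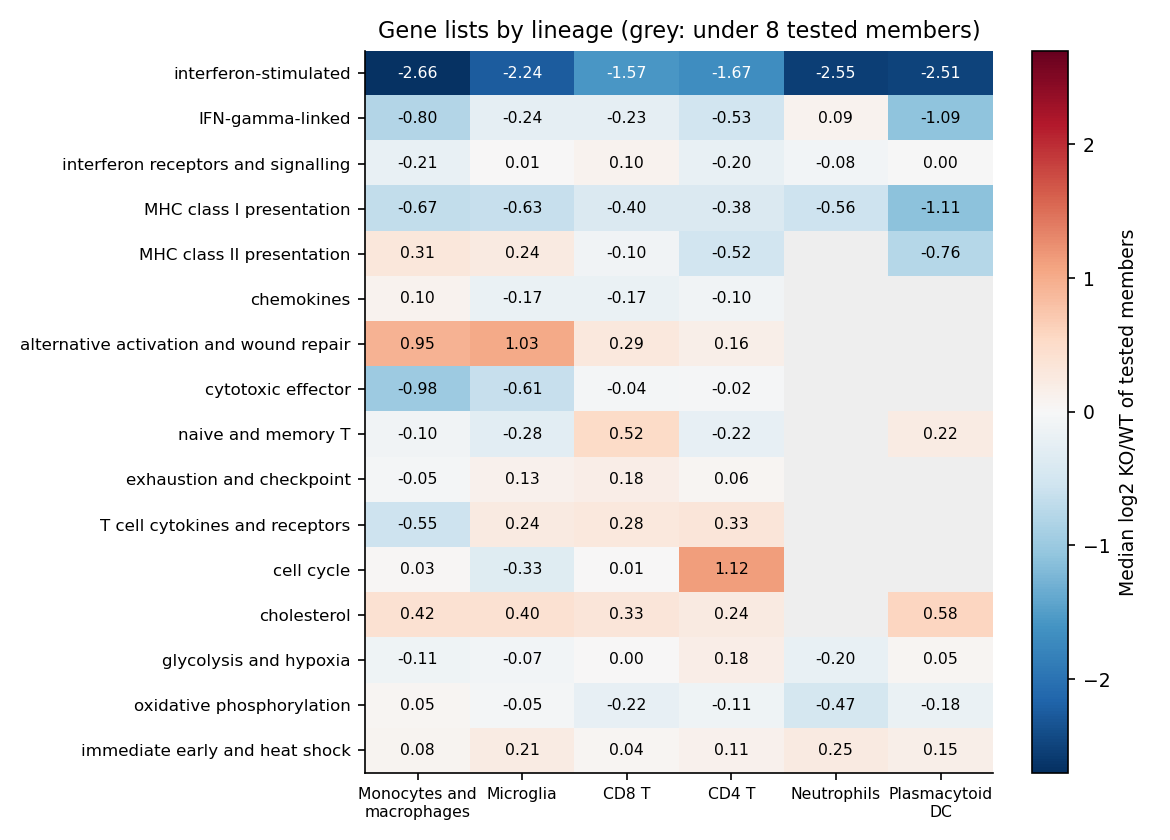
Median log2 KO/WT of the compared members of 16 gene lists (rows) in 6 lineages (columns), with the value printed in each cell and grey where fewer than 8 members were compared. The interferon-stimulated row holds the lowest median of each column, MHC class I is below 0 in every lineage, and alternative activation is highest in monocytes and macrophages (0.95) and microglia (1.03).

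Oxidative phosphorylation had medians of 0.05 in monocytes and macrophages and -0.05 in microglia, -0.22 in CD8 T cells with 62 of 72 genes below 0, -0.11 in CD4 T cells, -0.18 in plasmacytoid dendritic cells with 53 of 71 below 0, and -0.47 in neutrophils with 17 of 20 below 0. At least 2-fold lower were 2 genes in neutrophils and 0 in the other 5 lineages. Genes of cholesterol synthesis and transport had medians above 0 in the 5 lineages where at least 8 were compared, 0.42 in monocytes and macrophages, 0.40 in microglia, 0.33 in CD8 T cells, 0.24 in CD4 T cells and 0.58 in plasmacytoid dendritic cells, and at most 3 members of a lineage reached 2-fold in either direction. The CD4 T cell median changed sign in 1 of 11 alternatives, to -0.05.

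The ligands were sparsely measured. Of 21 interferon genes in the files, 9 had any UMI in the kept cells and 2 had at least 50. Ifnb1, interferon beta, had 102 UMIs in 39 WT cells and 124 in 37 KO cells, 2.23 and 4.11 CPM. In microglia it had 50 UMIs in 17 WT cells and 70 in 21 KO cells, 1.67-fold higher (1.14 to 2.45-fold). Gated monocytes and macrophages had 23 UMIs in 7 WT cells and 19 in 5 KO cells. Ifna2 had 10 and 19 UMIs, and 0 gated plasmacytoid dendritic cells had a UMI of Ifnb1 or of any interferon alpha gene in either library. Both receptor genes were read in each library. Over all cells Ifnar1 stood at 95.9 (93.1 to 98.8) CPM in WT and 129 (125 to 134) in KO, a log2 KO/WT of 0.43. Ifnar2 stood at 89.6 and 69.7 CPM, a log2 of -0.36. Since the labels do not give the removed part of the gene, these levels do not check the genotype. Per lineage, Ifnar1 ranged from 1.05-fold higher in KO in monocytes and macrophages to 2.59-fold in neutrophils (1.36 to 5.10-fold), where 16 and 29 UMIs fall short of the minimum of 50, and was 2.15-fold higher in plasmacytoid dendritic cells (1.77 to 2.62-fold), where the mean of per-cell CPM gave a log2 of 0.78.

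Genes next to Ifnar1 on chromosome 16 (91485238 to 91507441, GRCm38) were as level as the rest. Within 5 Mb of it 56 genes were compared, with a median of 0.03, 0 of them at least 2-fold lower and 1 higher. That 1 was Olig1, a glial transcription factor, with 8 UMIs in WT and 64 in KO. The neighbours Il10rb and Ifngr2 had log2 KO/WT of -0.04 and -0.10. Olig1, Il10rb and Ifngr2 were chosen after their values were seen.

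A group of genes at the far end of the X chromosome was higher in KO. Mid1, a microtubule-associated ubiquitin ligase (chrX:169685199-170005736, GRCm38), had 831 UMIs in WT and 12049 in KO over all cells, 21.99-fold higher (20.5 to 23.6-fold). It was 15.0-fold higher in monocytes and macrophages, 18.8-fold in microglia, 48.8-fold in CD8 T cells, 49.4-fold in CD4 T cells and 24.9-fold in plasmacytoid dendritic cells. Arhgap6, a GTPase activator (chrX:168795099-169304435), had 111 and 1495 UMIs, and Hccs, which attaches heme to cytochrome c (chrX:169250193-169320372), was 2.60-fold higher. From Msl3 to the end of the chromosome, 6 of 7 compared genes were at least 2-fold higher, and Msl3 itself had a log2 KO/WT of 0.27. Elsewhere on X, 11 of 378 were at least 2-fold higher, with a median of 0.06. Gm47283, which the annotation places on Y, had 1492 and 5436 UMIs, while the Y gene Ddx3y stood at 106 and 117 CPM. Hccs, Msl3, Gm47283 and Ddx3y were chosen after their values were seen, and what sets this group apart was not tested.

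Promoter letters were counted for 7790 of the 9920 genes compared in monocytes and macrophages that had a RefSeq promoter, 250 bases before to 50 after the gene's start. The ISRE core was searched as GAAANNGAAA on both strands. It was present in 47.6% (32.0 to 63.6%) of the 42 genes with log2 KO/WT of -3 or less, in 28.1% (17.0 to 41.5%) of 57 genes between -3 and -2, and in 11.8% (7.63 to 17.2%) of 195 genes between -2 and -1. Among genes between -1 and 0 it was present in 4.43%, and between 0 and 1 in 3.08%. Its share was 4.29% over the 7790 compared genes and 3.99% over all 27025 genes of the promoter table. Among 286 genes at least 2-fold higher it was present in 4.55% (2.44 to 7.65%), and among the 37 of them at log2 of 2 or more in 10.8% (3.02 to 25.4%). Of 235 genes at least 2-fold lower that are not in the interferon-stimulated list, 10.6% (7.00 to 15.3%) held it. The GAS core TTCNNNGAA was present in 11.6% of all genes at least 2-fold lower and 8.04% of those at least 2-fold higher. Its share was 8.34% over the 7790 compared genes and 9.55% over the table. The STAT6-type core TTCNNNNGAA was present in 8.39% (5.45 to 12.2%) of genes at least 2-fold higher. Its share was 6.56% over the 7790 compared genes and 8.01% over the table. It was present in 4 of 23 alternative activation genes with a promoter (17.4%, 4.95 to 38.8%) and in 13 of 66 interferon-stimulated genes (19.7%, 10.9 to 31.3%).

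**Figure D5:**
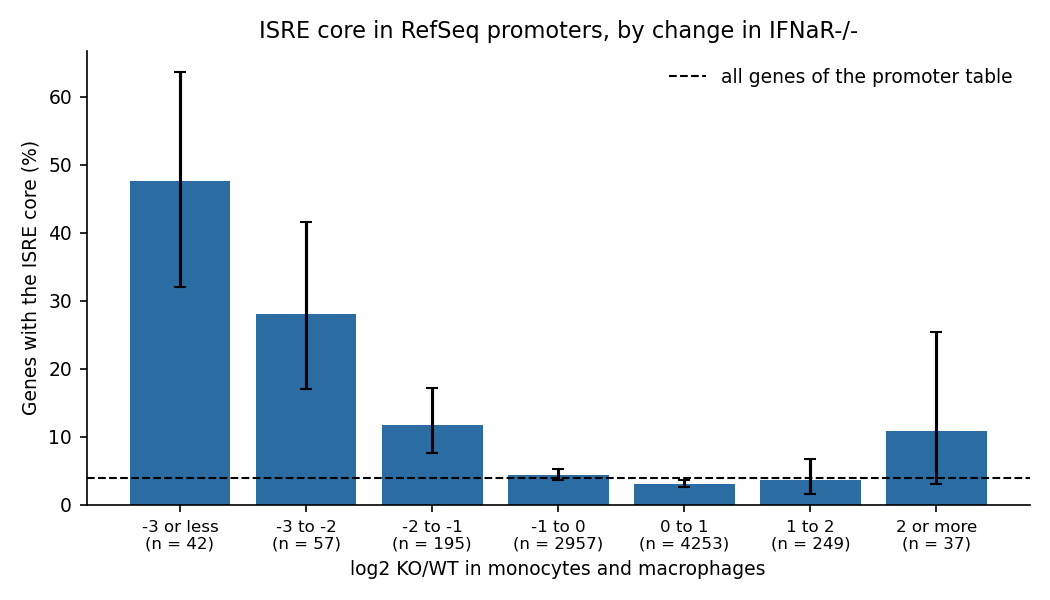
Percent of genes whose RefSeq promoter holds the ISRE core (bars, with exact 95% binomial intervals), by log2 KO/WT in monocytes and macrophages; the dashed line is the share over all genes of the table, 3.99%. The share is 47.6% among genes at -3 or less and at most 4.43% in the ranges from -1 to 2; the last range holds 37 genes and 10.8% (3.02 to 25.4%).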

How the data were processed

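The deposited values were raw UMI counts per gene and barcode, which the authors made with Cell Ranger 3.1.0 for both libraries, per the file headers; the builds mm10 and GRCm38 appear in the submitters' processing notes, and the labels name a 10x Genomics 5' kit. Settings for intronic reads and cell calling are not given in the sources used here. From these counts, cells with at least 200 genes and at most 10% mitochondrial UMIs were kept, and no doublet caller was run. Gates used raw UMIs: monocytes and macrophages had at least 10 of Lyz2, at least 2 of a myeloid set with Csf1r, Cd68, Adgre1 and a gene that is not reported here, at most 1 of Tmem119, P2ry12, Sall1 and Sparc, and 0 of Cd3d, Cd3e and Cd3g; microglia had at least 3 of the microglial set; CD8 and CD4 T cells at least 2 Cd3 UMIs and 1 of Cd8a or Cd8b1, or of Cd4, without the other and without Foxp3; neutrophils at least 3 of Csf3r, Cxcr2 and Retnlg; plasmacytoid dendritic cells 1 or more of Siglech and of Ccr9, Cox6a2 and Klk1. Markers of a gate were left out of the lists in their own lineage. Counts were summed per lineage and scaled to CPM, and log2 KO/WT used a pseudocount of 0.5 UMIs. Ratios have exact conditional binomial intervals, CPM exact Poisson and shares Clopper-Pearson. The depth behind each value is its UMI count; PCR duplicates are removed by UMIs, but intervals cover counting error only. The ratio code was tested on simulated data.

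Named genes were Ifnar1, Ifnar2, the interferons, and in each lineage up to 3 lower and 3 higher genes of each of 28 lists and 6 and 6 outside them, ranked by the interval bound nearest 0, leaving out gate markers, unnamed gene models, and sex-linked, haemoglobin, ribosomal, mitochondrial and receptor segment genes; not all are printed. Members, lists, gates and the rule were chosen with earlier results of these data known. Of 81 interferon-stimulated genes, 80 were in the files. Alternatives were a limit of 500 genes and 5% mitochondrial UMIs, no cell filter, no top 5% of barcodes by UMIs, stricter gates, thinning to 2000 UMIs, a mean of per-cell CPM, scaling by TMM in edgeR 4.0.16 or by the size factors of DESeq2 1.42.0 (both under R 4.3.3), a minimum of 10 UMIs or none, a pseudocount of 5 and KO lineages weighted to the WT shares. Chosen after seeing the data were leaving out each gene's top barcode and a broad monocyte and macrophage gate. Python 3.11.15, numpy 2.4.6, scipy 1.17.1 and pandas 2.3.3 were used. Positions came from GENCODE M21.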

Additional observations from a re-analysis of the deposited data

Results flagged for a closer look

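MHC class II presentation genes differed in direction between lineages. Their median log2 KO/WT was 0.31 in monocytes and macrophages and 0.24 in microglia, and -0.76 in plasmacytoid dendritic cells. Members below 0 numbered 2 of 12, 4 of 12 and 8 of 9 in that order. The lists were flagged because the median lower and median upper counting bound of the members lay on the same side of 0. Those bounds are not an interval of the list median and leave out the spread between members. The last value was -0.27 at equal depth and -0.55 without each gene's top barcode. The medians were -0.10 in CD8 T cells and -0.52 in CD4 T cells, and -2.08 over 5 genes in neutrophils, which became 0.26 without the top barcode. The difference between lineages was not tested, since each rests on the same 2 libraries.

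The T cell cytokine and receptor list also split, with -0.55 in monocytes and macrophages and 0.28 in CD8 T cells, not tested either. At equal depth the value in monocytes and macrophages was -0.06. In the same gate Trac, Trbc2 and Thy1 summed to 29.35 CPM for WT against 9.0 for KO. Their part in this value was not tested.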

How the results depend on the processing

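With 1 library per group no replicate could be left out, and counting intervals do not cover differences between animals. No paired analysis was possible because each group had 1 library. The median of the interferon-stimulated genes stayed below 0 under each alternative that gave a value: -2.75 to -2.63 in monocytes and macrophages, -2.34 to -1.78 in microglia, -1.74 to -1.52 in CD8 T cells, -1.89 to -1.34 in CD4 T cells, -2.93 to -2.04 in neutrophils and -3.19 to -1.18 in plasmacytoid dendritic cells. In the last it was -1.18 after thinning, -3.19 with a minimum of 10 UMIs and -3.14 with none. Over all cells it was -2.29 without the top 5% of barcodes, -2.44 after thinning and -2.39 as a mean of per-cell CPM.

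Counts of genes past 2-fold depended on the UMI minimum. With 10 UMIs, lower and higher genes numbered 773 and 764 over all cells, 818 and 722 in monocytes and macrophages, 689 and 430 in microglia, 346 and 506 in CD8 T cells, 574 and 515 in CD4 T cells, 440 and 311 in neutrophils, and 488 and 623 in plasmacytoid dendritic cells. With no minimum they numbered 1633 and 2194, 2739 and 1966, 2332 and 1817, 1075 and 1873, 1591 and 1769, 2874 and 1587, and 1778 and 2162, in the same order. After thinning, 223 were higher over all cells, and lower and higher genes numbered 230 and 146 in monocytes and macrophages, 81 and 59 in microglia, 75 and 58 in CD8 T cells, 65 and 32 in CD4 T cells, and 39 and 17 in plasmacytoid dendritic cells. In plasmacytoid dendritic cells 151 were higher by the mean of per-cell CPM and 61 with a pseudocount of 5. Genes at least 2-fold lower in monocytes and macrophages held the ISRE core in 25.7% after thinning, 12.8% with 10 UMIs and 7.12% with no minimum, beside 20.1%.

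The WT/KO ratio of median interferon-stimulated UMIs per cell was 2.50 in CD4 and 2.60 in CD8 T cells with no cell filter, and 2.33 in CD8 T cells both without the top 5% of barcodes and with stricter gates. With at least 500 genes and at most 5% mitochondrial UMIs, the log2 KO/WT of the share was -0.12 for microglia, -1.49 for plasmacytoid dendritic cells and -2.49 for B cells, and that of Ifnb1 over all cells was -0.19. After thinning, the share of monocytes and macrophages had a log2 of -0.48. Mcpt1 in microglia changed sign, to 0.57 without the top 5% of barcodes, 0.35 after thinning and 0.053 without its top barcode, which held most of its UMIs. For the other changes the cause was not tested. Fewer than 50 cells were left in plasmacytoid dendritic cells under the stricter filter, in these and neutrophils under stricter gates, and in neutrophils after thinning, so those have no value. TMM scaling moved every log2 value by -0.02 to -0.09. The sizes of single genes depended on the setting more often than their calls: of 244 values of a gene in a lineage, 126 moved by over 1.5 times in at least 1 alternative (98 with thinning left aside), and of the 204 that were at least 2-fold, 23 fell under 2-fold in at least 1, 14 of them after thinning.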

Other observations

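Some genes with extreme ratios rested on 1 barcode. Mcpt1, a mast cell protease, had 3907 UMIs in WT microglia and 15 in KO, and 3892 of the 3907 lay in 1 barcode; without each library's top barcode its log2 KO/WT was 0.05. Gzmc had 441 of 472 WT UMIs in 1 gated microglial barcode. Mucl1 had 128 UMIs in KO monocytes and macrophages, all in 1 cell, and 0 in WT. Tpsb2, a mast cell tryptase, had 54 of 74 KO UMIs in 1 gated CD8 T cell.

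Plasma cell RNA differed between the libraries as a whole. Igha, the heavy chain of IgA, had 31503 UMIs in 526 WT cells, 9729 of them in 1 barcode, and 54 UMIs in 29 KO cells. Igha, Igkc and Jchain together stood at 2343 CPM in WT and 16.4 in KO over all cells, and had UMIs in 22.1% and 2.78% of cells.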
